A study of Mus musculus with 6 samples.

Results

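Classical cadherins are the adhesion molecules of adherens junctions, and 8 cadherin genes were described here in the epithelium and the mesenchyme of the embryonic mouse bladder neck and urethra. The 8 genes are Cdh1, Cdh2, Cdh3, Cdh4, Cdh6, Cdh10, Cdh11 and Cdh13, out of 18193 genes that have at least 1 probe set annotated to a single gene on the array. They are read by 20 such probe sets. The brightest probe set of a gene, by mean signal, stands for it, and the other 12 probe sets serve as a check.

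All samples came from wild-type FVB/N embryos of unknown sex at embryonic day 13 (Theiler stage 21), with no transgene or treatment. The bladder neck and urethra were digested with trypsin (1 mg/ml, 20 minutes), and the epithelium was parted from the mesenchyme with a needle. RNA was amplified in 2 rounds and hybridised to Affymetrix whole-genome arrays, 3 for each layer. The sample titles number the epithelial arrays 1, 2 and 5, and the mesenchymal arrays carry 1, 2 and 3. The labels call the samples not pooled but give no embryo for any array, so p-values measure the spread between these samples, which may be technical. The layers are mixtures of cells, and in such bulk samples fewer cells of a type and less RNA per cell cannot be told apart.

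A classical cadherin spans the membrane once, binds a cadherin of the neighbouring cell through calcium-dependent extracellular repeats, and holds p120-catenin and beta-catenin with its cytoplasmic tail. Beta-catenin in turn recruits alpha-catenin, which connects the junction to actin. Type I members (Cdh1, Cdh2, Cdh3 and Cdh4) and type II members (Cdh6, Cdh10 and Cdh11) differ in the outermost repeat, which carries much of the binding specificity. Cdh13 is a cadherin held in the membrane by a lipid anchor and lacks the cytoplasmic tail, so it is not a classical cadherin in the strict sense. E-cadherin is the textbook cadherin of epithelia, whereas N-cadherin and cadherin-11 are known from mesenchyme.

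Values below are normalized signal units unless called log2 differences. A log2 difference is epithelium minus mesenchyme on the scale of quantile-normalized log2(signal + 16), with limma's standard error, and a positive value means more signal in epithelium. A gene passed when its Benjamini-Hochberg adjusted p over all tested genes was under 0.05. With 3 arrays or fewer in a layer, precision is limited by their number.

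The array labelled mesenchyme 1 stood apart, so results are given over all 6 arrays and over the other 5. The epithelial arrays correlated across genes (no independent replicates) at r = 0.912 to 0.948 and mesenchyme 2 with 3 at 0.98, but mesenchyme 1 with these at 0.805 and 0.78. Of 14 markers of liver, heart, lung, pancreas and epidermis, 13 were over 4-fold higher on mesenchyme 1 than on any other array. The summed signal of 8 epithelial markers was 75853 there, 12273 and 2840 on mesenchyme 2 and 3, and 171973 to 193034 in epithelium. All 8 epithelial markers (Epcam, Krt8, Krt18, Krt5, Trp63, Cldn4, Grhl2 and Esrp1) were higher on every epithelial array than on any mesenchymal one, and of the 8 mesenchymal markers 6 were lower, the exceptions being Lum and Dcn.

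The cadherins split between the layers. Without mesenchyme 1, 6 of the 8 passed: Cdh1 and Cdh3 were higher in epithelium, and Cdh2, Cdh6, Cdh10 and Cdh11 were higher in mesenchyme. Over all genes, 14.5% passed in that fit, 6.37% higher in epithelium and 8.17% higher in mesenchyme. With all 6 arrays, 3 of the 8 passed, namely Cdh2, Cdh6 and Cdh11, all higher in mesenchyme. The share over all genes was 5.98% there, 1.95% higher in epithelium and 4.03% higher in mesenchyme. The arrays of the layers did not overlap for 6 of the 8 over all 6 arrays (28.8% of all genes), 2 of them higher in epithelium (15.5% of all genes) and 4 in mesenchyme (13.2%). Without mesenchyme 1 this held for 7 of the 8 (45.4% of all genes), 2 higher in epithelium (23.1%) and 5 in mesenchyme (22.3%). The median log2 difference of the 8 was -2.24 over all 6 arrays and -2.55 without mesenchyme 1, beside 0.12 and 0.02 over all genes tested. All 8 genes lay above the brightness cutoff for testing, a mean equal to 96.3 signal units.

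**Figure D1:**
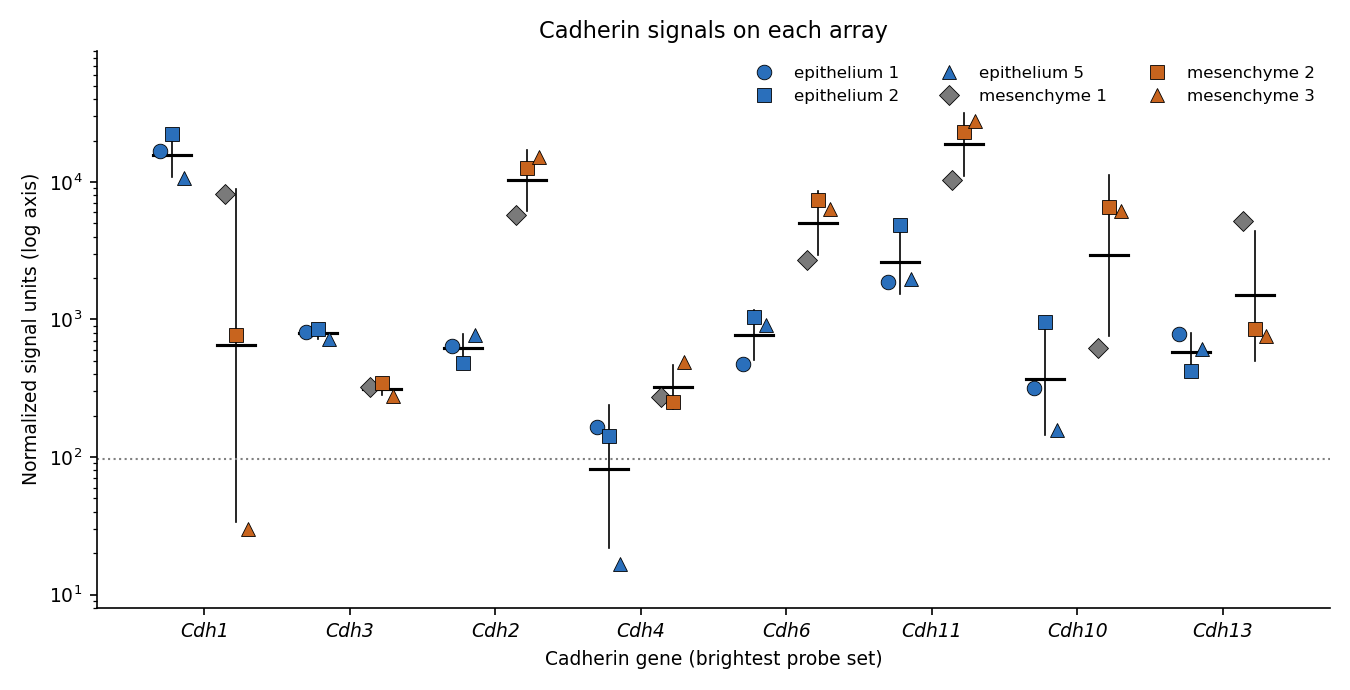
Normalized signal of each cadherin's brightest probe set on each of the 6 arrays (log axis); bars are the mean ± SD of the 3 arrays of a layer on the log2(signal + 16) scale, and the dotted line is the cutoff of 96.3 units. Cdh1 lay between 10617 and 22186 on the epithelial arrays and between 30.1 and 8160 on the mesenchymal ones, while Cdh2 lay between 482 and 776 and between 5774 and 15087.

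Cdh1 encodes E-cadherin, which holds epithelial cells together and is needed for the integrity of the epithelial sheet. It read 16750, 22186 and 10617 on epithelium 1, 2 and 5 and 8160, 770 and 30.1 on mesenchyme 1, 2 and 3. All epithelial arrays lay above all mesenchymal ones, but the mesenchymal arrays covered a 177-fold range on the log2 scale with its offset, and mesenchyme 3 alone lay below the brightness cutoff. Over all 6 arrays the log2 difference was 4.57 ± 1.64 (SE, n = 3 and 3, 95% interval 0.73 to 8.41), which did not pass (adjusted p = 0.18). Without mesenchyme 1 it was 6.46 ± 1.07 (88.0-fold higher in epithelium, n = 3 and 2, adjusted p = 0.00766). The size of that difference rested on mesenchyme 2 and 3, being 8.54 without mesenchyme 2 and 4.43 without mesenchyme 3 as well. Each of these further fits leaves 1 mesenchymal array, so the spread within mesenchyme cannot be seen in it. The 88.0-fold value draws on a reading below the cutoff. Only 1 probe set reads this gene here, so no other probe set checks it.

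The level of Cdh1 on the mesenchymal arrays moved with the other epithelial transcripts. As a percentage of the epithelial mean (taken on the log2 scale, as are all such means), Cdh1 stood at 51.6% on mesenchyme 1, 4.88% on mesenchyme 2 and 0.191% on mesenchyme 3. The 8 epithelial markers had medians of 37.0%, 5.90% and 1.62% on the same arrays, with ranges of 4.29% to 65.1%, 3.97% to 16.4% and 0.574% to 15.4%. All 8 were higher on mesenchyme 2 than on mesenchyme 3, by 1.06-fold (Cldn4) to 6.92-fold (Esrp1). Cdh1 too was higher on mesenchyme 2 than on mesenchyme 3, where it lay below the brightness cutoff and no fold is given. On mesenchyme 1 the exception among the 8 was Grhl2, an epithelial transcription factor, at 4.29%, between its 5.13% and 1.75% on mesenchyme 2 and 3. The part of epithelial cells in the mesenchymal readings of Cdh1 was not tested.

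**Figure D2:**
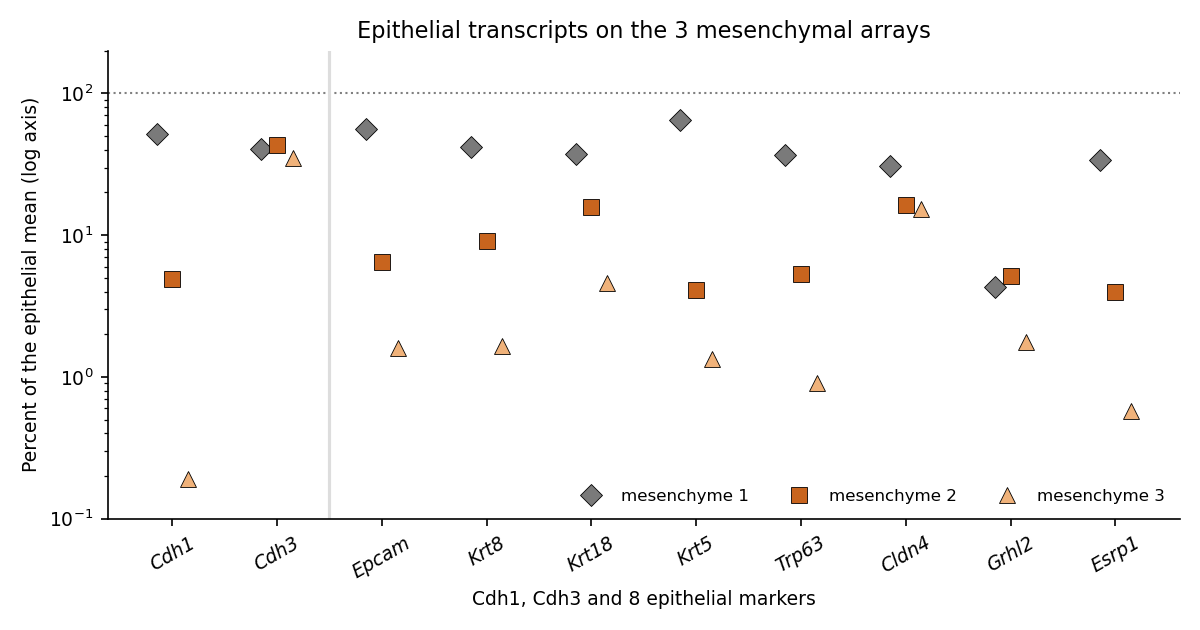
Cdh1, Cdh3 and 8 epithelial markers on the 3 mesenchymal arrays, each as a percentage of that gene's epithelial mean (log axis; dotted line, 100%). Cdh1 stood at 51.6%, 4.88% and 0.191% on mesenchyme 1, 2 and 3, in the same order as 7 of the 8 markers. The brightest probe set of Cdh3 stayed between 34.9% and 43.3%.

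Cdh3 encodes P-cadherin, a type I cadherin best known from placenta and from the basal cells of stratified epithelia. It read 814, 856 and 716 in epithelium, against 324, 344 and 277 on mesenchyme 1, 2 and 3. The layers did not overlap, and the spread within each layer was small, with SDs of 0.13 and 0.15 on the log2 scale. The difference on the log2 scale was 1.30 ± 0.32 over all 6 arrays (2.46-fold, adjusted p = 0.0643) and 1.36 ± 0.28 without mesenchyme 1 (2.57-fold, adjusted p = 0.0181). A second probe set read 597, 702 and 951 against 128, 176 and 223, a log2 difference of 2.00 ± 0.43 over all 6 arrays and 1.86 ± 0.37 without mesenchyme 1. The call without mesenchyme 1 ended when epithelium 1 (adjusted p = 0.0765), mesenchyme 2 (0.109) or mesenchyme 3 (0.206) was left out too.

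Cdh3 did not follow the other epithelial transcripts across the mesenchymal arrays. Its brightest probe set stood at 40.8%, 43.3% and 34.9% of its epithelial mean on mesenchyme 1, 2 and 3. On mesenchyme 3 all 8 epithelial markers were lower, at 15.4% or less. Between mesenchyme 1 and the mean of mesenchyme 2 and 3 the same probe set differed by 0.07 on the log2 scale. Of the tested genes 5.3% differed by less, whereas Cdh1 differed by 5.42. The second probe set of Cdh3 was less level, rising from 128 on mesenchyme 1 through 176 to 223 on mesenchyme 3.

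Cdh2 encodes N-cadherin, a type I cadherin of mesenchyme, muscle and the nervous system. It read 641, 482 and 776 in epithelium, against 5774, 12635 and 15087 on mesenchyme 1, 2 and 3. Every mesenchymal array lay far above every epithelial one, and mesenchyme 1 was the lowest of the mesenchymal arrays. Its log2 difference was -4.02 ± 0.43 over all 6 arrays (16.2-fold higher in mesenchyme, adjusted p = 0.00477) and -4.51 ± 0.29 without mesenchyme 1 (22.8-fold, adjusted p = 0.000607). Its second probe set read 307, 305 and 792 against 6283, 7637 and 8072, a log2 difference of -4.06 ± 0.41. Cdh2 kept its call without any 1 of the 6 arrays, with log2 differences of -4.51 to -3.75, and no other of the 8 did. Neuron markers were higher in mesenchyme too: the 5 on the array summed to 502, 980 and 865 in epithelium and 24336, 34269 and 28868 in mesenchyme. In both fits 4 of the 5 passed as higher in mesenchyme (4.03% of all genes over all 6 arrays, 8.17% without mesenchyme 1). Sums of mesenchymal, endothelial and smooth muscle markers, among others, were likewise higher on every mesenchymal array than on any epithelial one. The part of any of these cell types in the result was not tested.

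Cdh4 encodes R-cadherin, a type I cadherin described in retina, brain and kidney. It was dim, at 165, 142 and 16.7 on the epithelial arrays and 275, 250 and 494 on the mesenchymal ones. The layers did not overlap, and epithelium 5 lay far below the other epithelial arrays. The log2 difference was -1.80 ± 0.74 over all 6 arrays (adjusted p = 0.24) and -1.91 ± 0.80 without mesenchyme 1 (adjusted p = 0.187), so Cdh4 did not pass in either fit. A second probe set of similar brightness overlapped between the layers, at 153, 78.8 and 227 against 82.6, 111 and 161, with a log2 difference of 0.27 ± 0.55. The direction of Cdh4 therefore depended on the probe set.

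Cdh11 encodes cadherin-11 (OB-cadherin), a type II cadherin known from mesenchyme and from the osteoblast lineage. It read 1885, 4846 and 1983 in epithelium, against 10383, 22957 and 27938 on mesenchyme 1, 2 and 3. The layers did not overlap, epithelium 2 was the highest epithelial array and mesenchyme 1 the lowest mesenchymal one. The difference on the log2 scale was -2.83 ± 0.50 over all 6 arrays (7.12-fold higher in mesenchyme, adjusted p = 0.0212) and -3.26 ± 0.43 without mesenchyme 1 (9.60-fold, adjusted p = 0.00322). Its second, dimmer probe set gave -2.63 ± 0.60 (adjusted p = 0.0746) and -3.29 ± 0.45 (adjusted p = 0.00846). The call over all 6 arrays ended without epithelium 1 (adjusted p = 0.104), epithelium 5 (0.0995), mesenchyme 2 (0.0895) or mesenchyme 3 (0.0679).

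Cdh6 encodes K-cadherin, a type II cadherin best known from the developing kidney and the neural crest. It read 475, 1043 and 914 on the epithelial arrays and 2702, 7417 and 6360 on the mesenchymal ones. The arrays of the layers did not overlap, and mesenchyme 1 again lay between the epithelial arrays and mesenchyme 2 and 3. Its log2 difference was -2.69 ± 0.49 over all 6 arrays (6.43-fold higher in mesenchyme, adjusted p = 0.0243) and -3.19 ± 0.38 without mesenchyme 1 (9.15-fold, adjusted p = 0.0023). The call over all 6 arrays ended without epithelium 1 (adjusted p = 0.111), epithelium 2 (0.0571), epithelium 5 (0.0896), mesenchyme 2 (0.103) or mesenchyme 3 (0.0809).

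The second probe set of Cdh6 did not pass. It read 286, 282 and 237 on the epithelial arrays and 116, 513 and 468 on the mesenchymal ones, where mesenchyme 1 was the lowest of all 6. Its log2 difference was -0.19 ± 0.62 over all 6 arrays and -0.86 ± 0.36 without mesenchyme 1 (adjusted p = 0.28). With the mean of both probe sets Cdh6 had a log2 difference of -1.44 over all 6 arrays (adjusted p = 0.181) and of -2.03 without mesenchyme 1 (adjusted p = 0.00355).

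Cdh10 encodes a type II cadherin best known from brain. It read 320, 955 and 158 in epithelium, against 619, 6606 and 6186 on mesenchyme 1, 2 and 3. Mesenchyme 2 and 3 stood apart from all other arrays, and mesenchyme 1 fell inside the epithelial range. Of the 5 neuron markers on the array, Prph (425, 6912 and 5213 on mesenchyme 1, 2 and 3) and Elavl4 (2720, 9667 and 6781) were likewise lowest on mesenchyme 1. Stmn2 (15303, 12081 and 12210), Tubb3 (1049, 518 and 512) and Snap25 (4837, 5091 and 4153) were not. The part of neurons in the level of Cdh10 was not tested. The log2 difference was -2.95 ± 1.02 over all 6 arrays (adjusted p = 0.167) and -4.15 ± 0.67 without mesenchyme 1 (17.7-fold higher in mesenchyme, adjusted p = 0.007). The call without mesenchyme 1 ended when mesenchyme 2 (adjusted p = 0.0557) or mesenchyme 3 (0.0588) was left out too.

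The other 3 probe sets of Cdh10 did not pass in either fit. Only 1 of them lay above the brightness cutoff, and it read 137, 134 and 369 on the epithelial arrays and 789, 224 and 211 on the mesenchymal ones, so that mesenchyme 1 was its highest array. Without mesenchyme 1 the log2 differences of the 3 ran from -1.37 to -0.17, against -4.15 on the brightest.

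Cdh6 and Cdh10 were both higher in mesenchyme without mesenchyme 1, and both lie on chromosome 15, where Cdh9 is the only protein-coding gene between them. They are the members of the 8 whose promoters were matched in the RefSeq sequence table (2 of 8), and their promoters are shown for that reason. The 250 bases before 1 annotated start of each are shown 5′ to 3′ on the gene's strand, in GRCm38.p6. Capitals mark E-boxes, the CANNTG sites read by helix-loop-helix and zinc finger factors, among them Twist, Snail and Zeb proteins. The motif reads the same on both strands.

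Cdh6 promoter (chr15:13173676-13173925, minus strand): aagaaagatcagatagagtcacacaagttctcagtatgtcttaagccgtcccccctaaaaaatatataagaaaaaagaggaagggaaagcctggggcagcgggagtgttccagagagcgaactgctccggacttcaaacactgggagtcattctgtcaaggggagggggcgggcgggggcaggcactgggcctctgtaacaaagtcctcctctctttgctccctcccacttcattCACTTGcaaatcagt
Cdh10 promoter (chr15:18820079-18820328, plus strand): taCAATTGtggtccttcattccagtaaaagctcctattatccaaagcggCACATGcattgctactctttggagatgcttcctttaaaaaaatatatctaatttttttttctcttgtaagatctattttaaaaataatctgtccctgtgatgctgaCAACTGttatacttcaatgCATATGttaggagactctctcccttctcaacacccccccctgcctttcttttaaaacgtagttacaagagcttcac

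The Cdh6 window held 1 E-box, CACTTG, which begins 15 bases before the start. The Cdh10 window held 4, beginning 248, 201, 95 and 76 bases before it. Of 32851 windows of the same length in the table, 66.2% held at least 1 E-box and 3.8% at least 4. Neither window held CACCTG or its reverse complement CAGGTG, the core best known for Zeb and Snail proteins, which 17.2% of all windows held. A match is a description of the letters and does not show a bound site.

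Cdh13 encodes T-cadherin, known from vessels and smooth muscle. It read 786, 419 and 605 in epithelium, against 5176, 847 and 753 on mesenchyme 1, 2 and 3. Mesenchyme 1 stood 6.37-fold above the mean of mesenchyme 2 and 3, and mesenchyme 3 lay below epithelium 1, so the layers overlapped. The difference on the log2 scale was -1.33 ± 0.74 over all 6 arrays (95% interval -3.08 to 0.42, adjusted p = 0.381) and -0.46 ± 0.34 without mesenchyme 1 (-1.26 to 0.35, adjusted p = 0.473). Its other 3 probe sets lay below the brightness cutoff. Of the 14 marker lists, 11 had a higher summed signal on mesenchyme 1 than on mesenchyme 2 and 3. These sums on mesenchyme 1, 2 and 3 were 200993, 385 and 408 for the 4 liver markers, 35295, 872 and 415 for the 3 heart markers and 59275, 17234 and 9478 for the 6 striated muscle markers. They were 37500, 9666 and 6862 for the 4 leukocyte markers, 52939, 31772 and 23223 for the 6 smooth muscle markers and 13873, 10608 and 12537 for the 6 endothelial markers. Their part in the reading of Cdh13 on that array was not tested.

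**Figure D3:**
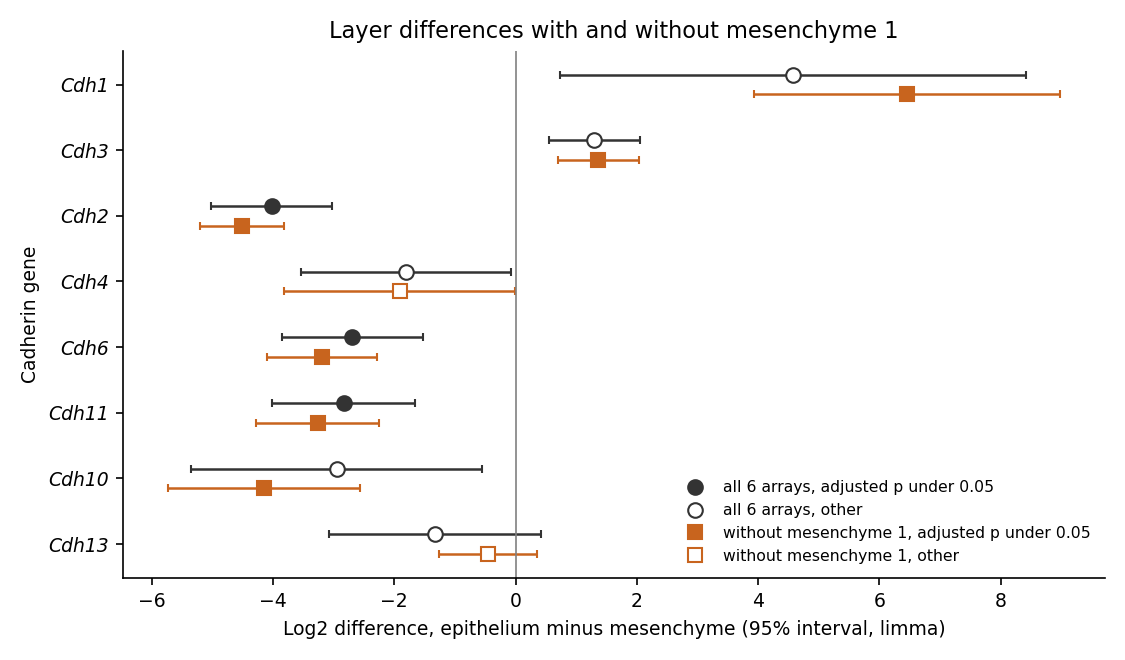
Log2 difference between epithelium and mesenchyme for each cadherin with its 95% interval from limma, over all 6 arrays (circles) and without mesenchyme 1 (squares); filled symbols have an adjusted p under 0.05. Filled symbols number 3 over all 6 arrays and 6 without mesenchyme 1, and the intervals of Cdh1 and Cdh10 are the widest among the 6 that passed.

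By the size of the log2 difference without mesenchyme 1, which is no ranking of levels, the members that passed as higher in mesenchyme ran from Cdh2 (-4.51) through Cdh10 (-4.15) and Cdh11 (-3.26) to Cdh6 (-3.19). Cdh4 (-1.91) and Cdh13 (-0.46) did not pass. The 95% intervals of neighbours in this order overlapped, those of Cdh2 and Cdh10 being -5.20 to -3.82 and -5.73 to -2.56. On the epithelial side the interval of Cdh1 (3.93 to 8.98) lay wholly above that of Cdh3 (0.70 to 2.03). In the shape of their profiles over the 6 arrays, each gene centred on its own mean, Cdh6 and Cdh11 were the most alike of the 28 pairs, with a root mean square difference of 0.37 on the log2 scale. Cdh10 and Cdh11 followed at 0.79 and Cdh2 and Cdh6 at 0.81.

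Mesenchyme 1 moved the members in different directions. Relative to the mean of mesenchyme 2 and 3 it was lower by 1.26 to 1.34 log2 units for Cdh2, Cdh6 and Cdh11 and lower for Cdh10 (-3.33), higher for Cdh1 (5.42) and Cdh13 (2.67), and close for Cdh3 (0.07) and Cdh4 (-0.34). These are shifts of the brightest probe sets, and the median absolute shift over all tested genes was 0.75. The second probe set of Cdh2 read 6283, 7637 and 8072 on mesenchyme 1, 2 and 3, a smaller drop. That of Cdh3 was lowest on mesenchyme 1 (128, against 176 and 223), and 1 of Cdh10 was highest there (789, against 224 and 211). The second probe sets of Cdh6 and Cdh11 were lower on mesenchyme 1 too. There the brightest probe sets of Cdh2, Cdh6 and Cdh11 still lay above their epithelial means, by 3.18, 1.79 and 1.98 log2 units. The second probe set of Cdh6 did not (116, against 237 to 286 in epithelium).

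The mesenchymal members were also read on the epithelial arrays. As a percentage of the mean of mesenchyme 2 and 3, Cdh11 stood at 7.44%, 19.1% and 7.83% on epithelium 1, 2 and 5, Cdh6 at 6.92%, 15.2% and 13.3%, Cdh10 at 5.01%, 14.9% and 2.48%, and Cdh2 at 4.64%, 3.49% and 5.62%. Epithelium 2 was thus the highest epithelial array for the type II members and the lowest for Cdh2. Among the 8 mesenchymal markers the percentages ran from 7.88% (Pdgfrb) to 104% (Lum), both on epithelium 2. Pdgfra stood at 11.2%, 37.0% and 15.7%, Vim at 17.4%, 16.8% and 17.7%, and Dcn at 52.9%, 62.6% and 83.2%. Lum and Dcn did not pass in either fit. Of the 8, 3 were highest on epithelium 2. All 6 endothelial markers were highest there among the epithelial arrays, with sums of 508, 1688 and 723. The part of mesenchymal or endothelial cells in these readings was not tested.

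**Figure D4:**
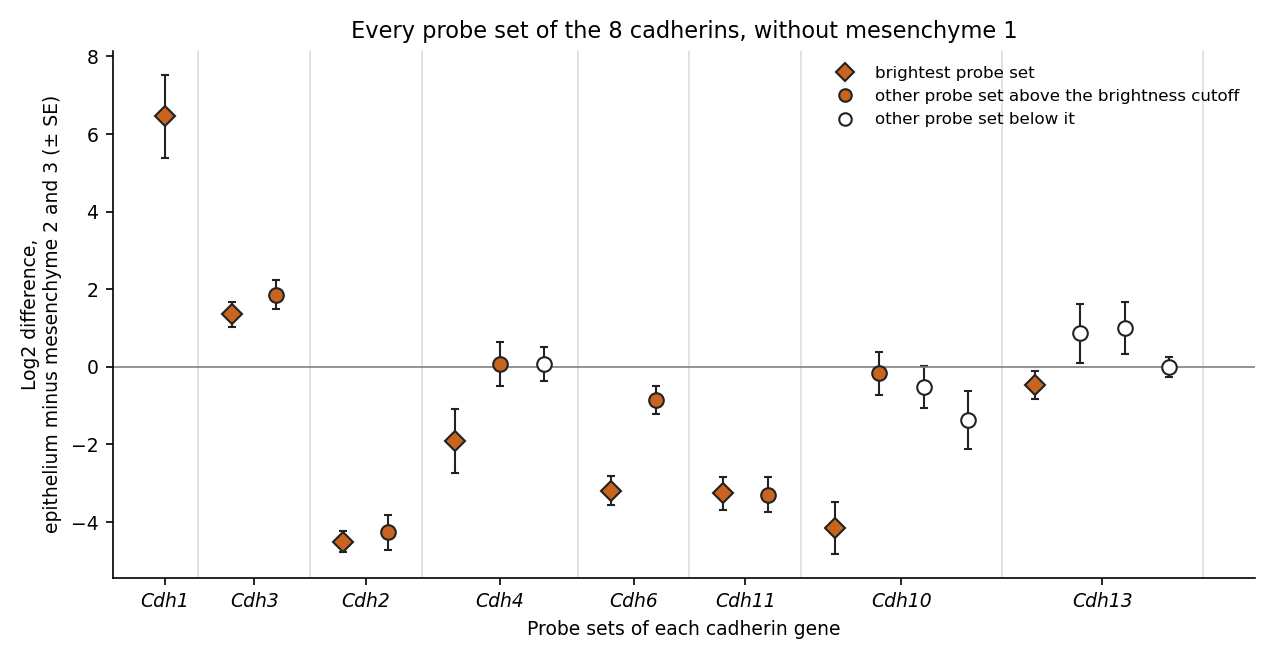
Log2 difference without mesenchyme 1, with its standard error, for all 20 probe sets of the 8 cadherins; diamonds are the brightest probe set of each gene, and open symbols lie below the brightness cutoff. Both probe sets of Cdh3, Cdh2 and Cdh11 lay on the same side at similar sizes, whereas the other probe sets of Cdh6 and Cdh10 lay closer to 0 than the brightest.

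The genes whose profiles over the 6 arrays were most like each member were found by the same measure over all tested genes. The nearest to Cdh1 were Tmprss2 (0.21), Ehf (0.29) and Clca1 (0.32), and to Cdh3 Fam210b (0.08), 9130008F23Rik (0.12) and Slc36a1 (0.13). Cdh2 was nearest to Crym (0.11), Cacng8 (0.30) and Rhoj (0.30), and Cdh4 to C230034O21Rik (0.21), Ahrr (0.25) and Robo4 (0.28). For Cdh6 they were Cerox1 (0.14), Sema4f (0.19) and Mrvi1 (0.22), for Cdh11 Fam13c (0.12), Notch4 (0.17) and Reck (0.21), and for Cdh10 Gsg1l (0.27), Frzb (0.36) and Hspa12b (0.37). Cdh13 was nearest to Mgll (0.16), Gpr182 (0.20) and 3300002P13Rik (0.22). With 6 arrays such nearness is a description of these arrays only.

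Of 17 tested catenins and junction partners, 3 were higher in epithelium (1.95% of all genes) and 1 in mesenchyme (4.03%) over all 6 arrays, and the median of the 17 log2 differences was 0.58. Without mesenchyme 1, 8 were higher in epithelium (6.37% of all genes) and 2 in mesenchyme (8.17%), with a median of 0.61. Ctnnb1, beta-catenin itself, read 53589 to 61385 on the 6 arrays (log2 difference 0.05 ± 0.10, adjusted p = 0.837), and Ctnna1, the alpha-catenin of epithelia and most tissues, had a log2 difference of 0.16 ± 0.14 (adjusted p = 0.575). Neither passed in either fit. Arvcf, another tested catenin, did not pass over all 6 arrays (0.56 ± 0.30, adjusted p = 0.353). Without mesenchyme 1 it did not pass either (0.59 ± 0.27, adjusted p = 0.223). Ctnnd1 and Jup, which bind the cadherin tail directly, were higher in epithelium without mesenchyme 1. Ctnnd1, p120-catenin, had a log2 difference of 1.42 ± 0.27 there (adjusted p = 0.014) and of 0.87 ± 0.48 over all 6 arrays (adjusted p = 0.379). Jup, plakoglobin, which can take the place of beta-catenin, had 1.92 ± 0.30 (adjusted p = 0.00627) and 1.34 ± 0.51 (adjusted p = 0.203). Mesenchyme 1 read 4066 for Ctnnd1 and 770 for Jup, above mesenchyme 2 and 3 (1268 and 1434 for Ctnnd1, 231 and 271 for Jup).

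The partners that passed included both catenins and scaffolds. Ctnna2, the neural alpha-catenin, read 55.5, 77.3 and 45.7 on the epithelial arrays and 697, 706 and 658 on the mesenchymal ones (-3.24 ± 0.39, adjusted p = 0.00671). Plekha7, which links p120-catenin to microtubules at the belt-like junction of epithelia, was higher in epithelium (3.01 ± 0.64, adjusted p = 0.0394), as were Ajuba, a LIM protein that binds alpha-catenin (1.11 ± 0.16, adjusted p = 0.0115), and Pkp4, a relative of p120-catenin (0.58 ± 0.13, adjusted p = 0.0471). Without mesenchyme 1, Nectin4, an immunoglobulin-type adhesion molecule of epithelia, was higher in epithelium by 3.86 ± 0.44 (adjusted p = 0.00202) and Ctnnd2, delta-catenin, by 2.31 ± 0.31 (adjusted p = 0.00327). Mesenchyme 1 read 1071 and 7105 for this pair, above mesenchyme 2 and 3 (279 and 151 for Nectin4, 2908 and 2097 for Ctnnd2).

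**Figure D5:**
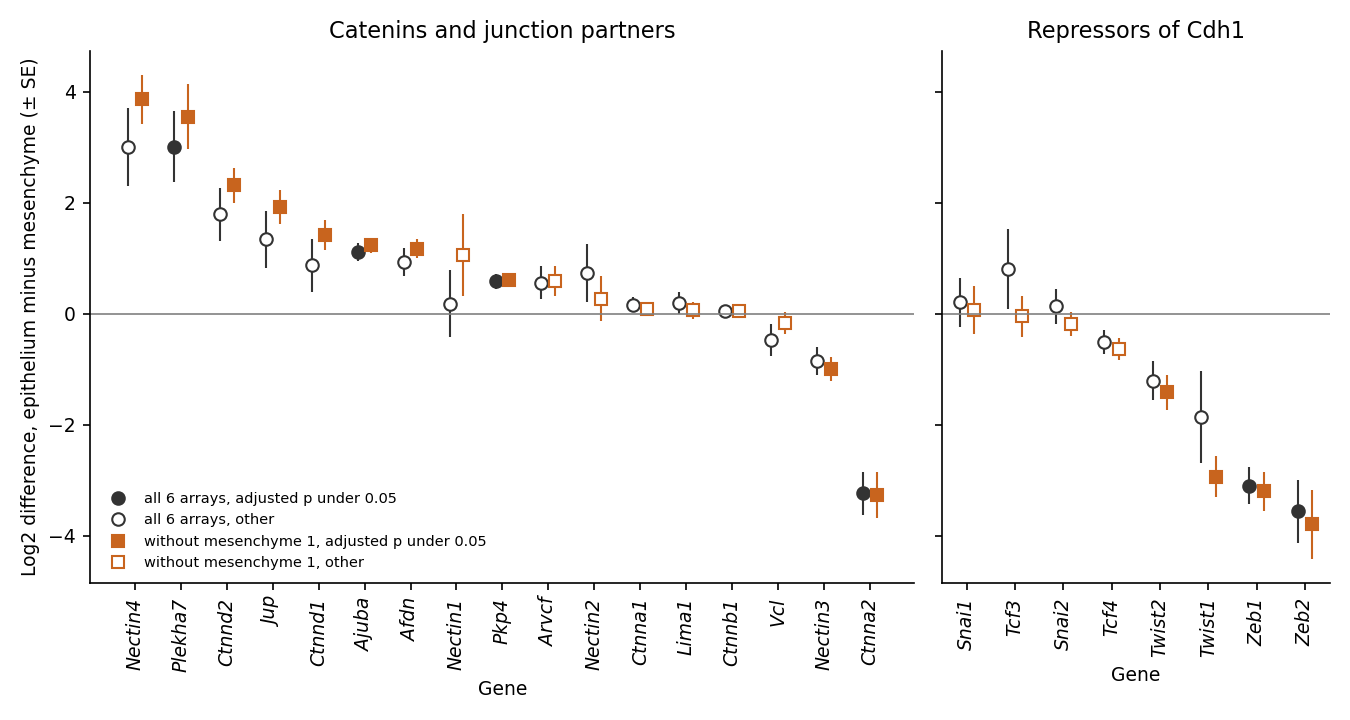
Log2 difference with its standard error for 17 catenins and junction partners (left) and 8 transcription factors known to repress Cdh1 (right), over all 6 arrays (circles) and without mesenchyme 1 (squares); filled symbols have an adjusted p under 0.05. Ctnnb1 and Ctnna1 lie near 0, and Zeb1 and Zeb2 lie lowest on the right, at -3.10 and -3.56 over all 6 arrays.

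Of 8 tested transcription factors known to repress Cdh1, 2 were higher in mesenchyme over all 6 arrays (4.03% of all genes) and 4 without mesenchyme 1 (8.17% of all genes), and none was higher in epithelium in either limma fit. Zeb1, a zinc finger repressor of epithelial genes, read 1135, 2077 and 2332 on the epithelial arrays and 13730, 16802 and 15512 on the mesenchymal ones (-3.10 ± 0.33, adjusted p = 0.00455). Zeb2 read 249, 833 and 179 against 3380, 4138 and 5135 (-3.56 ± 0.57, adjusted p = 0.015). For both, mesenchyme 1 was the lowest mesenchymal array yet above every epithelial one. Twist1 (-2.94 ± 0.37, adjusted p = 0.00285) and Twist2 (-1.42 ± 0.32, adjusted p = 0.0271) passed without mesenchyme 1. Neither passed over all 6 arrays (adjusted p = 0.273 and 0.105). On mesenchyme 1 Twist1 read 467, inside its epithelial range of 333 to 724, against 3389 and 4294 on mesenchyme 2 and 3. Twist2 read 1534 there, above every epithelial array, and Tcf3 read 983, below every other array (3447 to 7314). Mesenchyme 1 is also the array on which Cdh1 read 8160, and a link between these readings was not tested. Snai2 read 8406 to 17860 over the 6 arrays (0.13, adjusted p = 0.854) and Snai1 at most 159.

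Among genes for the maturation, shedding and turnover of cadherins, 1 of 8 tested passed in each fit, beside 5.98% of all genes over all 6 arrays and 14.5% without mesenchyme 1. Adam9, a membrane metalloprotease, was higher in mesenchyme (-1.05 ± 0.24, adjusted p = 0.0496, and -1.03 ± 0.24 without mesenchyme 1, adjusted p = 0.0296). Adam10, the main protease that sheds E- and N-cadherin, read 8086 to 18203 over the 6 arrays and did not pass (-0.25 ± 0.31, adjusted p = 0.688).

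Cdh3 and Cdh1, the members higher in epithelium, are next to each other on chromosome 8. The protein-coding genes that flank the pair did not pass. Zfp90 had a log2 difference of 0.61 over all 6 arrays (adjusted p = 0.567) and 0.08 without mesenchyme 1, and Tango6 of 0.82 (adjusted p = 0.379) and 0.44. Cdh11 lies on the same chromosome between Cdh8, which was dim and did not pass (-1.23, adjusted p = 0.387), and Cdh5, the endothelial VE-cadherin.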

How the data were processed

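The deposited table holds 1 intensity per probe set and array on a linear scale. Per the submitters' processing notes the values come from GCOS, Affymetrix's software, with version and settings not given in the sources used here. The authors' values share a mean of 1500 on each array after 2% of probe sets are trimmed at each end. Array medians ran from 126 to 254. The labels differ on where the bladder was cut relative to the ureters.

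Of 45101 probe sets, 64 are controls, 34945 name 1 gene in the platform annotation, 932 several and 9160 are unnamed here. Values were quantile normalized as log2(signal + 16), probe sets above the 40th percentile of mean log2 value were kept, and each gene took its brightest. This left 13717 genes, or 13587 when all steps were repeated without mesenchyme 1. The test between layers was that of limma 3.58.1 (R 4.3.3), with lmFit and eBayes, an intensity trend and no covariate, adjusted over all genes. The offset understates changes of dim genes. Signal units are 2 to the power of the normalized value, less 16. The code was tested on simulated data.

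Members, gene lists and markers were chosen with earlier results of these data known. Named genes are all members, up to 4 genes past the threshold with the largest difference per list, the 2 brightest where fewer than 2 passed, and the 3 nearest profiles per member. Beyond this rule, Ctnnb1, Ctnna1, Ctnnd1, Jup, Arvcf, Snai1, Snai2, Tcf3, Fat1, Fat4, Cdh17, Cdh19 and the neighbours Zfp90, Tango6, Cdh8 and Cdh9 were named after values were seen. So were the cell type markers given singly, among them those of neurons. Promoters are RefSeq's, of build GRCm38.p6, and gene coordinates are not given because the array annotation used here states no build. Alternatives were other offsets, normalizations, filters, probe set rules and variance models, a block for the replicate number, and leaving out each array. Single other probe sets, fitted over all 34945 probe sets with no filter, were added after the data were seen.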

Additional observations from a re-analysis of the deposited data

How the results depend on the processing

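Over all 6 arrays, 3 cadherins passed under 8 of the 11 other settings or 4 without a variance trend, 1 with median centring and 0 with the replicate block. With the mean of probe sets the 3 were Cdh2, Cdh3 and Cdh11, so that Cdh3 took the place of Cdh6. Leaving out 1 array gave 1 to 6 cadherins past the threshold and 142 to 1975 genes. Without mesenchyme 1, 5 or 6 cadherins passed under all 10 other settings and 4 to 6 with a further array left out, with 649 to 3878 genes. Where 1 mesenchymal array was left, it was assumed to vary like the epithelial ones. Median centring moved the median log2 difference of all genes from 0.12 to 0.23.

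The replicate block used numbers 1 and 2, which both layers carry. It left 1 residual degree of freedom, and limma called 0 genes and 0 cadherins, with 1460 genes and 6 cadherins at an unadjusted p under 0.05. Same-numbered arrays did not deviate together (r = -0.05 and -0.02 across genes). Deviations were taken from layer means that include mesenchyme 1, so these values cannot tell whether same-numbered arrays share an embryo.

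Directions turned for Cdh4 and Cdh13 alone among the 8. The other probe sets of Cdh4 gave 0.27 and 0.23 over all 6 arrays and 0.07 and 0.07 without mesenchyme 1, and its second probe set became the brightest when epithelium 2 (0.43), mesenchyme 2 (-0.18) or mesenchyme 3 (0.30) was left out besides mesenchyme 1. Over such further arrays left out, Cdh4 ranged from -2.35 to 0.43. Without mesenchyme 1, Cdh13 gave 0.35 with the mean of its probe sets and 0.86 and 1.00 on single others, which gave 0.97 and 0.07 over all 6 arrays. Over all 6 arrays Cdh3 passed when probe sets were averaged (adjusted p = 0.0227) and without a variance trend (0.0362). It missed the threshold without mesenchyme 1 under median centring (0.0645). Cdh10 missed it there when probe sets were averaged (-1.55, adjusted p = 0.0522). Probe sets near background carry no detection call, which limits Cdh4 and Cdh13 most.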

Other observations

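Other cadherins of the classical and close types were mostly dim. Of 15 listed, 13 are on the array with a single-gene probe set and 7 were tested, of which 1 passed over all 6 arrays (5.98% of all genes). That gene was Cdh5, VE-cadherin, the adhesion molecule of endothelial junctions, at 99.3, 294 and 145 in epithelium, against 4915, 3529 and 4012 on mesenchyme 1, 2 and 3 (log2 difference -4.52 ± 0.44, adjusted p = 0.00394). Unlike Cdh2, Cdh6 and Cdh11, it was highest on mesenchyme 1. Without mesenchyme 1, 6 were tested, with 1 higher in epithelium (6.37% of all genes) and 1, again Cdh5, in mesenchyme (8.17%). Cdh16, the kidney-specific cadherin, read 1265, 669 and 105 against 955, 11.7 and 8.95. It passed without mesenchyme 1 (4.15 ± 0.97, adjusted p = 0.03) but not over all 6 arrays (2.43 ± 1.54, adjusted p = 0.438). Its readings on mesenchyme 2 and 3 lay below the brightness cutoff. Cdh15, the muscle M-cadherin, read 196 to 319 over the 6 arrays (-0.15, adjusted p = 0.856). Cdh17, the liver-intestine cadherin, read 9955 on mesenchyme 1 and 22.8 to 142 elsewhere. Cdh19, a cadherin of Schwann cell precursors, read 468 and 322 on mesenchyme 2 and 3, 27 on mesenchyme 1 and at most 9.69 on the epithelial arrays, and lay below the cutoff for testing.

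Members of the wider cadherin superfamily also differed between the layers. Over all 6 arrays, 20 protocadherin, Fat, Dachsous, Celsr and calsyntenin genes were tested, with a median log2 difference of -1.32. Of these, 2 were higher in epithelium (1.95% of all genes) and 2 in mesenchyme (4.03%). Without mesenchyme 1, 3 of 21 were higher in epithelium (6.37% of all genes) and 8 in mesenchyme (8.17%), with a median of -1.81. Celsr1, a planar cell polarity cadherin, read 5633, 4443 and 4886 in epithelium and 564, 481 and 425 in mesenchyme (3.31 ± 0.29, adjusted p = 0.0037). Fat2 was higher in epithelium (4.22 ± 0.59, adjusted p = 0.00998), and Fat3 (-3.32 ± 0.71, adjusted p = 0.0397) and the protocadherin Pcdh10 (-2.36 ± 0.52, adjusted p = 0.0436) were higher in mesenchyme. Pcdh17 passed without mesenchyme 1 (-3.01 ± 0.40, adjusted p = 0.00348), as did Fat4, the receptor of Dachsous, at 2607, 4757 and 3097 against 6544, 19184 and 28523 (-2.78 ± 0.32, adjusted p = 0.00202). Fat1 read 30695 to 38055 on all 6 arrays (-0.04 ± 0.14, adjusted p = 0.9).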
